A study of Homo sapiens with 3 samples.

Results

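The FBXL18 and ACTB cluster on 7p22 comprised 7 member genes that lie side by side on the short arm of chromosome 7, namely SLC29A4, TNRC18, FBXL18, MIR589, ACTB, FSCN1 and RNF216. They were chosen by the number and the linkage of their promoter contacts in these same data, so everything said about those contacts is a description and no test was run. A promoter fragment was a fragment of the genome that the calls list as a promoter and that holds an annotated transcript start of a member, and 7 of the 19075 promoter fragments with a call qualified. They took part in 129 of the 200587 contacts of the series.

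Promoter capture Hi-C (PCHi-C) crosslinks neighbouring chromatin, digests it with HindIII, ligates the cut ends and captures the products that include a promoter. It was applied to 3 biological replicates of hESC-CMs, which are heart muscle cells made from the embryonic stem cell line WA09 (H9) at passage 32 with a differentiation kit and then enriched in lactate medium without glucose. All replicates shared this line and this treatment, so there was 1 group and no comparison between groups, and all values hold for 1 line. Purity was checked by the submitters with MYH7 and TNNT2, but the calls hold no expression values and the cell type was not checked here.

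A contact is a listed pair of HindIII fragments. Its CHiCAGO score is a weighted p-value on a negative log scale, for the read count of the pair against the count expected at that distance and from technical noise. It grows with the number of reads as well as with the excess, so differences in score are measures neither of contact frequency nor of the size of the excess. The lowest score listed was 5, and a pair that is not listed was not shown to be apart. Replicates 1, 2 and 3 had 112473, 109731 and 110740 calls, and read depth was not analysed here.

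Enhancers and promoters on the same chromosome are often brought together by loops of chromatin, and genes that lie near each other can share such distant elements. An F-box protein such as FBXL18 picks the proteins that an SCF ubiquitin ligase marks for breakdown. ACTB encodes beta-actin, a cytoskeletal protein of nearly all cells, and FSCN1 encodes fascin, which bundles actin filaments. RNF216 is another ubiquitin ligase, of the RING type, TNRC18 encodes a large nuclear protein with a BAH domain, SLC29A4 encodes a monoamine transporter of the cell membrane, and MIR589 is a microRNA gene inside an intron of FBXL18.

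The fragments of the contacts with the highest mean scores are shown by their reference sequence (GRCh37, plus strand). The highest mean score joined the promoter fragment of FBXL18 and MIR589, chr7:5534637-5543676, to a partner fragment in an intron of RNF216, chr7:5705159-5706912. The lines give the cut ends that ligation can join, at chr7:5534616-5534661, chr7:5543656-5543701, chr7:5705138-5705183 and chr7:5706892-5706937, with the HindIII site in capitals. None of these stretches overlapped an annotated exon.
FBXL18/MIR589 promoter fragment, left end: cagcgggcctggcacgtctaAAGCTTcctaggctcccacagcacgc
FBXL18/MIR589 promoter fragment, right end: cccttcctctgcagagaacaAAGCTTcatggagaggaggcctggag
Leading partner fragment, left end: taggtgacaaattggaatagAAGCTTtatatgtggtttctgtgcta
Leading partner fragment, right end: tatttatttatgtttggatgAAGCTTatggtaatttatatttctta

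The middle 200 bases of that partner fragment, chr7:5705935-5706134, and of the partner fragment with the next highest score, chr7:5744602-5744801 in chr7:5742915-5746489, are given since these fragments had the highest mean scores of all member contacts. Both stretches are intronic in RNF216 and overlap no exon, and the calls do not resolve positions within a fragment.
First peak, middle: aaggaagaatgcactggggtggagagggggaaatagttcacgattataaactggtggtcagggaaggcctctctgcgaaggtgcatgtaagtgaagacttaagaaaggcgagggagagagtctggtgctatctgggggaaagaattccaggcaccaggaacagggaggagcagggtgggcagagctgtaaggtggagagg
Second peak, middle: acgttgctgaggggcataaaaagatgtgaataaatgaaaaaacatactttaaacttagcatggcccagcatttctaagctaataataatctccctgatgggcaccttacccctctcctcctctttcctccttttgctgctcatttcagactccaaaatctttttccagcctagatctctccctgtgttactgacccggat

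MIR589 starts within the same promoter fragment as 1 of the FBXL18 transcripts, so the contacts of both genes there are the same measurements. Its mature products are shown from RefSeq (GRCh38.p14, minus strand, chr7:5495873-5495894 and chr7:5495834-5495857) with the seed, bases 2 to 8, in capitals. The seeds of the products differ from each other.
hsa-miR-589-5p: uGAGAACCacgucugcucugag
hsa-miR-589-3p: uCAGAACAaaugccgguucccaga

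The 7 promoter fragments differed in what they hold. TNRC18 had 2 of its 10 annotated transcripts starting in promoter fragments, 1 in chr7:5441213-5461830 (TNRC18 fragment 1) and 1, at the start of the gene record, in chr7:5464933-5470759 (TNRC18 fragment 2). The FBXL18/MIR589 fragment held 1 of 3 FBXL18 starts. The other 2 FBXL18 starts lay with 19 of 23 ACTB starts in chr7:5545104-5573854, the FBXL18/ACTB fragment, a stretch of 28751 bp in which the promoters of both genes cannot be told apart. The other 4 ACTB starts lay in chr7:5601713-5619438, called the upstream ACTB fragment here. FSCN1 had 4 of 5 starts in chr7:5629496-5635341, and RNF216 had 5 of 9 starts in chr7:5815434-5839678. None of the 6 SLC29A4 starts lay in a promoter fragment, and no fragment with such a start was called in any replicate, so no contact was listed for SLC29A4. The files do not say which fragments were captured, so start fragments that are never listed as promoters, all those of SLC29A4 and several of TNRC18 and RNF216, may not have been assayed.

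The 129 contacts numbered 98 in replicate 1, 104 in replicate 2 and 91 in replicate 3, a mean of 97.7 ± 6.51 (SD, n = 3). All 3 replicates called 69 of them (53.5%, 95% Wilson interval 44.9 to 61.9%, counting error only), 26 were called in 2 replicates and 34 in 1. The same share was 24.0% over all contacts of the series and 34.0% over those that span at most 1 Mb. Since the members were selected on these calls, nothing is read from the gap. Among contacts of 100 to 200 kb, 43 of 59 of the members' (72.9%) were called in all 3 replicates beside 40.7% in the series, and at 200 to 300 kb the figures were 10 of 32 (31.2%) beside 37.7%.

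The rank order of the contacts by score was partly kept between replicates. Spearman's rho of the scores, across contacts called in both replicates, was 0.764 for replicates 1 and 2 (84 contacts), 0.771 for 1 and 3 (73 contacts) and 0.767 for 2 and 3 (76 contacts). These contacts share fragments and are not independent. Scores of a single contact could differ between replicates. The largest SD, 7.13, was that of FBXL18/MIR589 with chr7:5742915-5746489, at 28.94, 41.24 and 28.84. The median score of the members' contacts was 8.14, 8.18 and 8.00 in replicates 1, 2 and 3, beside 6.63, 6.64 and 6.65 over all calls of the replicate.

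The number of contacts varied between the member promoter fragments. The FBXL18/MIR589 fragment had 18, 26 and 25 contacts in replicates 1, 2 and 3, the most of any member fragment on average (23 ± 4.36). The FBXL18/ACTB fragment had 21, 23 and 20 (21.3 ± 1.53), the upstream ACTB fragment 18, 18 and 16 (17.3 ± 1.15) and the FSCN1 fragment 17, 17 and 19 (17.7 ± 1.15). The ranges of the FBXL18/MIR589 and FBXL18/ACTB counts overlapped, as did those of the upstream ACTB and FSCN1 counts. In the union of the replicates these fragments had, in the same order, 30, 28, 18 and 20 contacts. Over all promoter fragments with a call, the median of the union was 6 contacts.

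Counted by gene, TNRC18 had the largest SD between replicates, with 27, 22 and 14 contacts (21 ± 6.56). Its fragment 1 had 10, 12 and 3 contacts (8.33 ± 4.73) and its fragment 2 had 17, 10 and 11 (12.7 ± 3.79). The SD of the FBXL18/MIR589 fragment, 4.36, lay between those of the TNRC18 fragments. Of the 15 contacts of fragment 1 in the union of the replicates, 1 was called in all 3, and of the 20 contacts of fragment 2, 6 were. By contrast, 16 of 18 contacts of the upstream ACTB fragment (88.9%, 67.2 to 96.9%) and 15 of 20 of the FSCN1 fragment (75.0%, 53.1 to 88.8%) were called in all 3 replicates. The FBXL18/MIR589 fragment had 18 of 30 in all 3 (60.0%, 42.3 to 75.4%) and the FBXL18/ACTB fragment 16 of 28 (57.1%, 39.1 to 73.5%). The median distance was 277 and 258 kb for TNRC18 fragments 1 and 2. It was 115 kb for upstream ACTB and 94.0 kb for FSCN1. Over the series, 37.7% of contacts of 200 to 300 kb were called in all 3 replicates, and 40.7% of those of 100 to 200 kb. A part of distance in these shares was not tested.

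RNF216 stood at the other end of the scale. Its promoter fragment had 0, 1 and 0 contacts, and the 1 contact, with a score of 5.65 in replicate 2, was with a promoter fragment of NUDCD3 38702 kb away on the same chromosome. The gene body of RNF216 was nevertheless where most contacts of the other members ended. Counted by gene, with shared fragments counted for each gene, FBXL18 had 57 contacts in the union (33 in all 3 replicates), ACTB 46 (32), TNRC18 35 (7), MIR589 30 (18), FSCN1 20 (15), RNF216 1 (0) and SLC29A4 0.

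**Figure D1:**
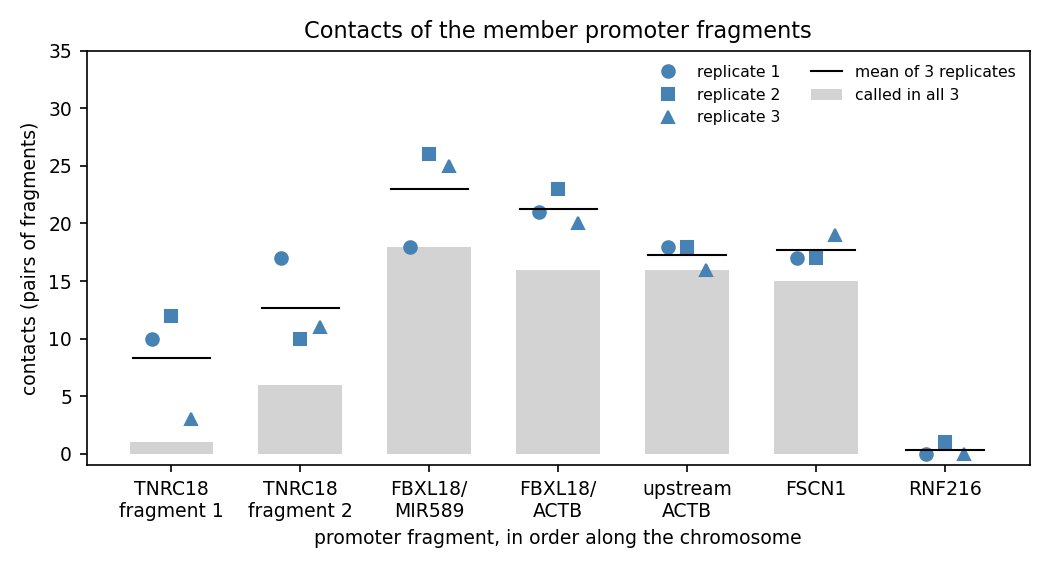
Number of contacts (y axis, pairs of fragments) of each member promoter fragment (x axis, in order along the chromosome), with a symbol per replicate, a line at the mean of the 3 replicates and a grey bar from 0 for the contacts called in all 3. FBXL18/MIR589 and FBXL18/ACTB lie highest, TNRC18 fragment 1 ranges from 3 to 12 and RNF216 has 0, 1 and 0.

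Partners converged on the body of RNF216. Of the 129 contacts, 94 had a partner fragment in RNF216, and so did 62 of the 69 contacts called in all 3 replicates. The 129 contacts used 46 partner fragments, 20 of which lay in RNF216. Of the 46, 27 were called with 2 or more member promoter fragments (58.7%, Wilson interval 44.3 to 71.7%), beside 37.2% of the partner fragments of the series called with 2 or more promoter fragments of any kind. With 4 or more, there were 17 of the 46, beside 9.35% of those of the series. As the members were chosen for such linkage, these shares describe the choice.

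A run of neighbouring partner fragments, chr7:5700447-5747326, gathered 77 of the 129 contacts (59.7%) and 58 of the 69 called in all 3 replicates (84.1%). The run was defined after its values were seen, as the stretch of adjoining fragments each called with 4 or more member promoter fragments, and it spans 46.9 kb in 14 called fragments of 837 to 12868 bp. A fragment of 14 bp inside the run, chr7:5722509-5722522, was not called and was passed over as too short to end it. The whole run is intronic in RNF216, and 3 of the fragments at its left also overlap an exon of RNF216-IT1, a noncoding transcript annotated within RNF216. Its GC content was 46.7%, beside 40.8% over the chromosome, and its right end lay 68.1 kb from the RNF216 promoter fragment, which had no contact with it.

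Most possible pairs in the run were called. Its definition required each fragment to be called with 4 or more member promoter fragments, so the counts below partly restate that choice. The 6 promoter fragments of TNRC18, FBXL18, MIR589, ACTB and FSCN1 could form 84 pairs with the 14 fragments, and 77 of these were called in at least 1 replicate. The FBXL18/ACTB and upstream ACTB fragments were each called with all 14 fragments in every replicate. FBXL18/MIR589 reached 13 of the 14 in all 3 replicates, FSCN1 11, TNRC18 fragment 2 reached 5 and TNRC18 fragment 1 reached 1. Inside the run 75.3% of the contacts were called in all 3 replicates, and outside it 11 of 52 were (21.2%). The run was chosen on these same calls, so nothing is read from the gap.

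**Figure D2:**
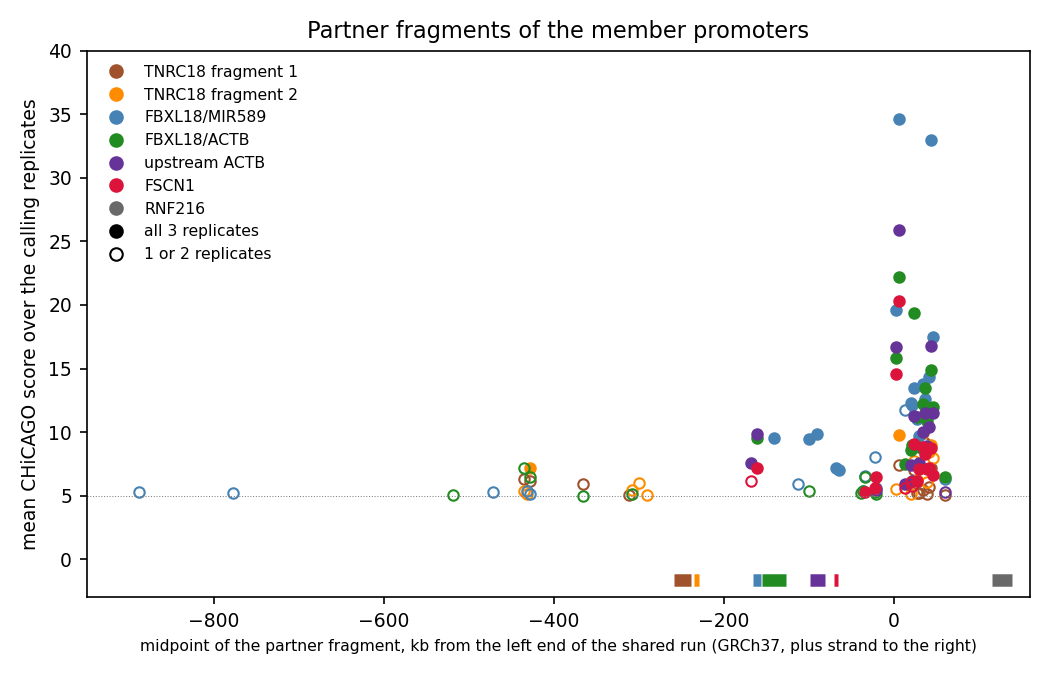
Mean CHiCAGO score over the replicates that called the contact (y axis) against the midpoint of the partner fragment in kb from the left end of the shared run (x axis), by member promoter fragment. Filled circles were called in all 3 replicates and open circles in 1 or 2, bars under the axis of scores mark the promoter fragments, the dotted line is the lowest score listed, and contacts between member promoters appear once from each side. The scores above 15 lie within the shared run, and RNF216 at the right has no point in this window.

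The 2 fragments of the run with the highest mean scores lie near its ends and are called the first and the second peak here, after the pattern of FBXL18/MIR589 and upstream ACTB, which had their highest mean scores at both. At the first peak, chr7:5705159-5706912, the FBXL18/MIR589 fragment scored 32.82, 35.08 and 36.00 in replicates 1, 2 and 3 (34.6 ± 1.64). The upstream ACTB fragment scored 24.82, 26.12 and 26.88 (25.9 ± 1.04) and the FBXL18/ACTB fragment 21.48, 26.07 and 19.02 (22.2 ± 3.58). FBXL18/MIR589 thus lay above both fragments with ACTB starts in every replicate, while the ranges of those 2 overlapped. On the merged replicates the order was turned, with 39.22 for upstream ACTB and 35.59 for FBXL18/MIR589.

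The FSCN1 fragment scored 20.75, 19.74 and 20.51 at the first peak (20.3 ± 0.528), and its range overlapped that of FBXL18/ACTB. TNRC18 fragment 2 scored 9.38, 11.91 and 8.09 (9.79 ± 1.94). TNRC18 fragment 1 scored 5.77 and 9.09 and was not listed in replicate 3. The order was therefore FBXL18/MIR589, then the ACTB and FSCN1 fragments, then TNRC18, with gaps between these 3 levels that no replicate bridged. FBXL18/MIR589 lay 167 kb from the first peak and FSCN1 73.6 kb, and a part of distance in this order was not tested.

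At the second peak, chr7:5742915-5746489, FBXL18/MIR589 scored 28.94, 41.24 and 28.84 (33.0 ± 7.13), again above every other member in each replicate. The 41.24 of replicate 2 was the highest score of any member contact. The upstream ACTB fragment scored 20.76, 16.52 and 13.06 (16.8 ± 3.86) and FBXL18/ACTB 12.45, 16.59 and 15.57 (14.9 ± 2.16), with overlapping ranges. TNRC18 fragment 2 scored 8.97, 5.77 and 12.22 (8.99 ± 3.23), FSCN1 10.98, 9.50 and 5.86 (8.78 ± 2.63) and TNRC18 fragment 1 6.59, 9.84 and 5.05 (7.16 ± 2.45). The second peak was the 1 fragment that all 6 of these promoter fragments reached in all 3 replicates.

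The difference in score between the peaks varied by promoter fragment. For FSCN1 the first peak exceeded the second by 9.77, 10.2 and 14.7 score units in replicates 1, 2 and 3, for the upstream ACTB fragment by 4.06, 9.60 and 13.8 and for FBXL18/ACTB by 9.03, 9.48 and 3.45. For FBXL18/MIR589 the differences were 3.88, -6.16 and 7.16, so that its peaks had no order beyond the spread between replicates. TNRC18 fragment 2 likewise had differences of both signs, 0.410, 6.14 and -4.13. TNRC18 fragment 1 scored higher at the second peak in both replicates that listed it at each, with differences of -0.820 and -0.750.

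**Figure D3:**
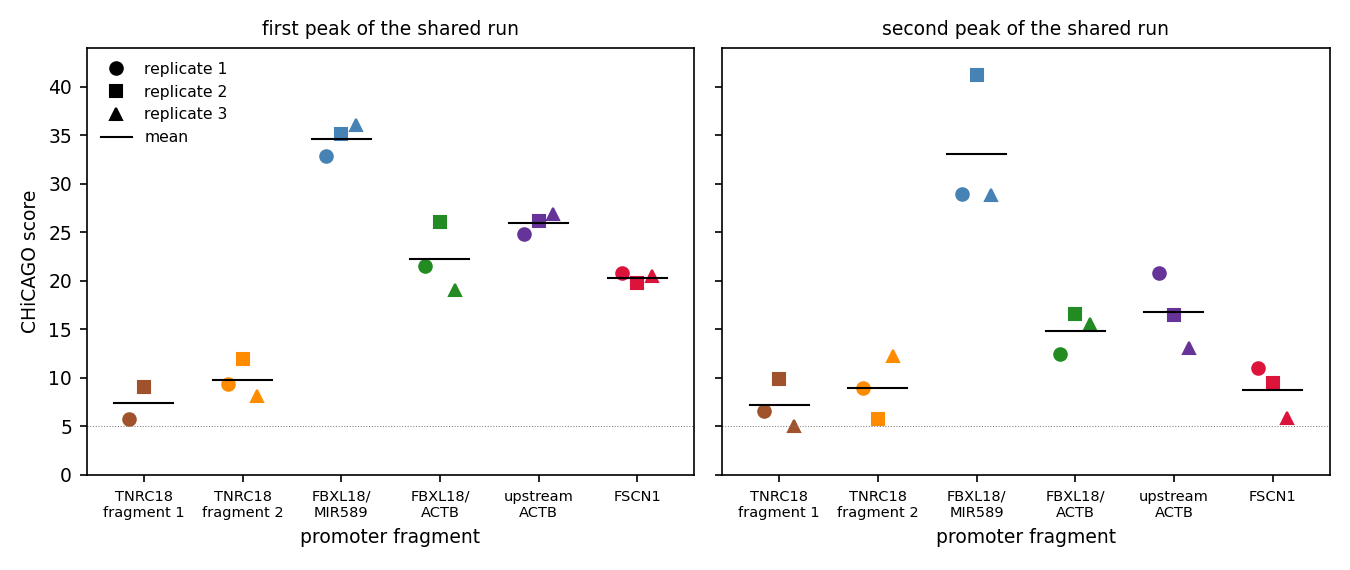
CHiCAGO score (y axis) of each member promoter fragment (x axis) with the fragments at the first (left) and second (right) peak of the shared run, a symbol per replicate and a line at the mean of the replicates that called the contact. The dotted line is the lowest score listed. FBXL18/MIR589 lies above the other members in both panels, from 28.84 to 41.24, and FSCN1 falls to 5.86 to 10.98 at the second peak.

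Between these fragments the scores differed by promoter, and for FBXL18/ACTB, FSCN1 and both TNRC18 fragments some mean scores there were above that at the second peak. The FBXL18/ACTB fragment alone among the member fragments had its next highest mean score at chr7:5722523-5726300, at 19.92, 19.46 and 18.68 (19.4 ± 0.627). FBXL18/MIR589 scored 12.58, 14.11 and 13.83 there (13.5 ± 0.815), the upstream ACTB fragment 11.41, 10.49 and 11.95 (11.3 ± 0.738) and FSCN1 8.41, 9.17 and 9.72 (9.10 ± 0.658). The 4 ranges did not overlap, and FBXL18/ACTB stood above FBXL18/MIR589, the reverse of both peaks. The left neighbour of the first peak, chr7:5700447-5705158, was also high, with means of 19.6 ± 4.87 for FBXL18/MIR589, 16.7 ± 1.60 for upstream ACTB, 15.8 ± 2.10 for FBXL18/ACTB and 14.6 ± 0.543 for FSCN1. The longest fragment of the run, at 12868 bp, had the lowest median of the mean scores (6.71). TNRC18 fragment 2 had its highest mean score in the right part of the run, at chr7:5733204-5735969, with 12.23, 8.21 and 9.23 (9.89 ± 2.09).

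Mean scores along the run were compared between the 4 promoter fragments of FBXL18, ACTB and FSCN1, over the fragments called in all 3 replicates with both of a pair. Pearson's r was highest between upstream ACTB and FSCN1, at 0.919 (Spearman's rho 0.700, 11 fragments), and was 0.905 (0.857, 13 fragments) between upstream ACTB and FBXL18/MIR589. It was 0.868 (0.886, 14 fragments) between FBXL18/ACTB and upstream ACTB and 0.812 (0.864, 11 fragments) between FBXL18/ACTB and FSCN1. The lowest values of r were those of FBXL18/MIR589 with FSCN1, 0.700 (0.636, 11 fragments), and with FBXL18/ACTB, 0.690 (0.769, 13 fragments). Spearman's rho ordered the pairs otherwise. It was lower for upstream ACTB with FSCN1 (0.700) than for FBXL18/MIR589 with FBXL18/ACTB (0.769). The fragments adjoin each other and share their length and base composition, so they are not independent. Median mean scores over the run were taken among contacts called in all 3 replicates, which are different sets of fragments. They were 13.5 for FBXL18/MIR589 (13 fragments), 11.9 for FBXL18/ACTB (14) and 10.2 for upstream ACTB (14). For TNRC18 fragment 2 the median was 8.99 (5 fragments) and for FSCN1 8.27 (11). Medians of single replicates did not keep this order. FBXL18/MIR589 had 12.6 and FBXL18/ACTB 12.7 in replicate 1, and TNRC18 fragment 2 had 6.76 and FSCN1 7.64 in replicate 2.

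**Figure D4:**
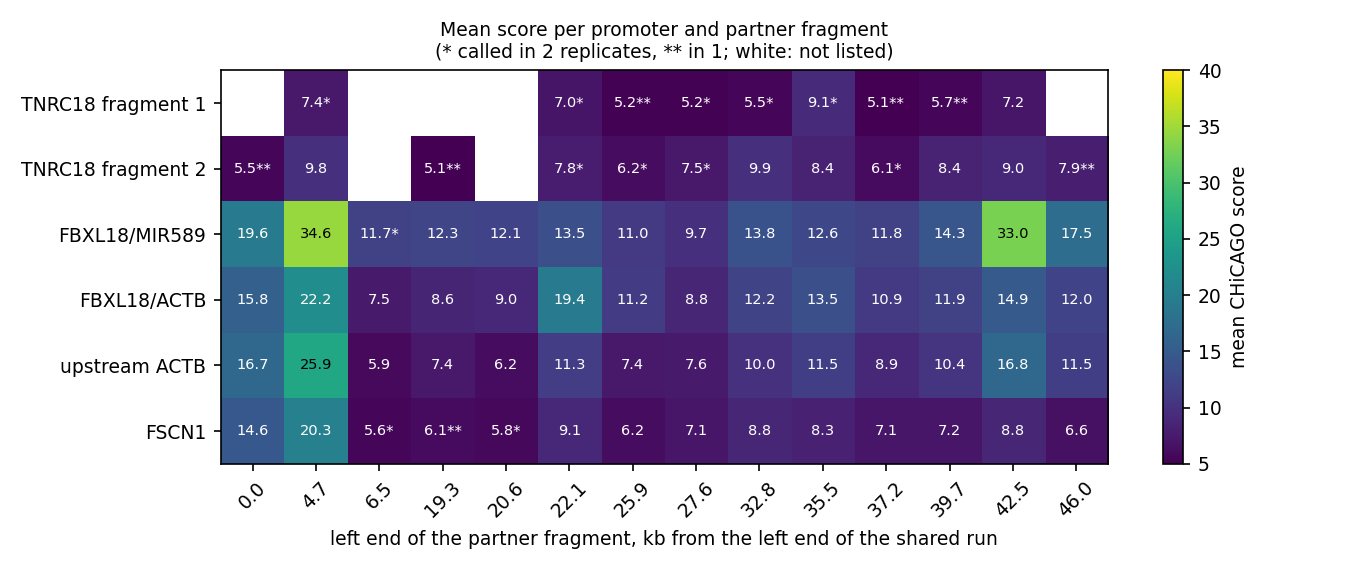
Mean CHiCAGO score of each member promoter fragment (rows) with each called fragment of the shared run (columns, left end in kb from the left end of the run). A star marks contacts called in 2 replicates, a pair of stars those called in 1, and white cells are not listed. The FBXL18/MIR589 row reaches 34.6 and 33.0 at the peaks, and the FBXL18/ACTB row reaches 19.4 between them.

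The run ended at its right on a fragment of 12189 bp, chr7:5747327-5759515, that no replicate called with any member and that holds an RNF216 transcript start. The next fragment, chr7:5759516-5762653, was called again with 4 member fragments, among them FBXL18/ACTB in all 3 replicates (5.60, 7.00 and 6.86). On the left, 5 fragments in RNF216 between chr7:5658980 and 5680213 carried the remaining contacts of that gene. FSCN1 reached 3 of these 5 in all 3 replicates, with mean scores of 5.32 ± 0.497, 5.61 ± 0.340 and 6.43 ± 1.05. In all, the 17 contacts in RNF216 outside the run had mean scores of 5.05 to 8.02, and 4 were called in all 3 replicates.

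Contacts between the member promoters themselves were fewer than those with the run, and their scores lay below those of FBXL18/MIR589 at the peaks. Of 21 possible pairs of member promoter fragments 3 were called, each in all 3 replicates, and each involved FBXL18/MIR589. It scored 8.17, 12.52 and 7.88 with FBXL18/ACTB (9.52 ± 2.60), 9.63, 12.46 and 7.37 with upstream ACTB (9.82 ± 2.55) and 6.88, 8.18 and 6.48 with FSCN1 (7.18 ± 0.889). The 3 ranges overlapped, and replicate 2 had the highest value each time. On the merged replicates upstream ACTB and FSCN1 were called as well, at 5.76.

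FBXL18/MIR589 also touched the ground beside those promoters. It was called in all 3 replicates with chr7:5600491-5601712, which adjoins the upstream ACTB fragment (11.29, 9.15 and 7.88, 9.44 ± 1.72), and with chr7:5635342-5635540 in an intron of FSCN1 (5.33, 8.14 and 7.50, 6.99 ± 1.47). In the other direction, upstream ACTB was called in all 3 replicates with chr7:5531166-5534636, the intronic FBXL18 fragment that adjoins FBXL18/MIR589 (6.43, 9.20 and 6.99, 7.54 ± 1.46). FSCN1 was called with that fragment in replicates 1 and 3 (7.01 and 5.32).

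A second partner region, with mean scores of 5.10 to 7.18, lay on the other side, at WIPI2, which encodes a phosphoinositide-binding protein of autophagy. Of 10 contacts there, with 4 partner fragments and 4 member promoter fragments, 1 was called in all 3 replicates, between TNRC18 fragment 2 and chr7:5271638-5273915 (8.37, 6.00 and 7.07, 7.15 ± 1.19). FBXL18/ACTB was called with that fragment at 6.15 and 6.82 in replicates 1 and 2 and TNRC18 fragment 1 at 6.10 and 6.15 in replicates 2 and 3. FBXL18/MIR589 was called with it in replicate 2 at 5.10. Neither the upstream ACTB fragment nor FSCN1 had a contact in WIPI2. SLC29A4 entered as a partner, through an intronic fragment of 208 bp, chr7:5334621-5334828, called with TNRC18 fragment 1 (6.35 and 5.43 in replicates 1 and 2) and with FBXL18/ACTB (5.00 in replicate 3).

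Long contacts were few. All but 6 of the 129 contacts joined fragments of chromosome 7 within 1 Mb, and the median distance of the contacts was 167 kb. The 6 others, 5 on chromosome 7 and 1 on another chromosome, were each called in 1 replicate. Over the series, the share called in all 3 replicates fell with distance, from 44.9% at up to 50 kb to 26.9% at 500 to 1000 kb. Nothing is therefore read from the lack of recurrence of these 6. The highest of them was 8.22 in replicate 2, between TNRC18 fragment 1 and the promoter fragment of BAHCC1 on chr17:79371698-79373802. BAHCC1 is a relative of TNRC18 that was on a list of related genes, and no alignment of at least 95% identity over 500 bp joined the fragments. Of 49 fragments searched, 1 had such a match elsewhere in the genome, the FSCN1 promoter fragment, with 955 bp on chromosome 15 at 95.9% identity, and the shared run had none.

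When the contacts called in all 3 replicates were drawn as a network, 6 member promoter fragments fell in 1 connected group of 29 fragments and 78 contacts, with an average of 5.38 contacts per fragment. By that average it ranked 3 of the 3031 groups in the series, a rank for which the members were chosen. RNF216's own promoter fragment was not in it. FBXL18/MIR589 had 18 of the contacts, upstream ACTB and FBXL18/ACTB 16 each, FSCN1 15, TNRC18 fragment 2 had 6 and TNRC18 fragment 1 had 1. The group held 1 promoter fragment of no member, chr7:5489147-5531165, which lies in the body of FBXL18 and carries the starts of ENSG00000230733 and snoU13. It was called with 13 of the 14 fragments of the run, 8 of them in all 3 replicates, at scores of 5.01 to 16.73. The promoter fragments of MAFK, of SLC4A2 and FASTK, and of SMARCD3 each reached 1 fragment of the run, none of them in all 3 replicates.

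Likeness of partner sets was measured by the Jaccard index, the partners shared by a pair of promoter fragments over the partners of either. The most alike were upstream ACTB and FSCN1, with 17 shared partners and an index of 0.810. They hold different genes and are near neighbours, 21.8 kb apart. FBXL18/ACTB was most like FSCN1 (0.600) and upstream ACTB (0.586), and FBXL18/MIR589 was most like FBXL18/ACTB (0.568). The TNRC18 fragments were less alike, with 11 shared partners and an index of 0.458, although both belong to 1 gene. For each of these 6 the 3 most alike promoter fragments on the chromosome were other member fragments, with a tie at 0.455 for TNRC18 fragment 2 with a fragment of no member described above.

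No listed contact joined a neighbouring protein-coding gene to the run. Of 30 other protein-coding genes with a start between 4.5 and 7.0 Mb of the chromosome, 16 had a promoter fragment with a call, with a median of 6 contacts, and 6 had a contact in all 3 replicates. Over all promoter fragments with a call, counted by fragment, the median was also 6, and 48.1% had no contact in all 3 replicates. Among the 30, 3 (AP5Z1, RADIL and WIPI2) had a contact with a member promoter fragment, each with FBXL18/MIR589 in 1 replicate at 5.29, 5.17 and 5.32. EIF2AK1, a kinase of the integrated stress response, had the most contacts of the list, 45 with 6 in all 3 replicates, and DAGLB, an enzyme of endocannabinoid synthesis, was among those with 1.

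The relatives of the members elsewhere in the genome were listed beside them. Of 32 listed symbols 28 were in the annotation and 23 had a promoter fragment with a call, with a median of 11 contacts and of 3 called in all 3 replicates. Counted by fragment over all promoter fragments with a call, these medians were 6 and 1. Among the actins, ACTC1, the main actin of the heart, had 37 contacts (19 in all 3 replicates). ACTG1, the other cytoplasmic actin, had 27 (9) over 2 fragments, and ACTA1, the actin of skeletal muscle, had no promoter fragment with a call. ACTB, with 46 contacts (32 in all 3), had more than any of them, though over 2 fragments of which 1 is shared with FBXL18. On 1 fragment, ACTC1 exceeded either ACTB fragment, which had 28 contacts (16 in all 3) and 18 (16). FSCN2 had 11 (3) on 1 fragment and FSCN3 25 (3) over 2, beside 20 (15) on 1 fragment for FSCN1. Among the F-box relatives of FBXL18, FBXL19 had 23 (4) and FBXL22 had 1 (0).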

How the data were processed

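The PCHi-C calls were used as deposited, for each of the 3 hESC-CM replicates and for the merged set. The authors mapped reads with HiCUP and called interactions with CHiCAGO, and each deposited score belongs to a pair of HindIII fragments of GRCh37. No score was recomputed. All 6491 called fragments of chromosome 7 matched HindIII sites of the GRCh37 reference. Transcript starts came from the GRCh37 lift of GENCODE v44. A contact was an unordered pair, and the union of the 3 replicates was the main set. Distances are between fragment midpoints, and means of contacts missing in a replicate leave that replicate out. SDs are between replicates and intervals are 95% Wilson intervals. The members and the gene lists were chosen with earlier results of these data known. The text names the members, the 3 partner fragments of each promoter fragment with the highest mean score among those called in all 3 replicates, up to 3 promoter fragments with the most similar partner sets (at least 5 partners), and 2 to 4 genes of each list. Other partners were chosen after their values were seen. Alternatives were scores of at least 7 or 10, each replicate left out, merged calls, ordered pairs, matching within 5 kb, contacts of at most 1 Mb and gene-record starts only. Near-identical sequence was searched with minimap2 2.31-r1302. Counting was tested on simulated data. Python 3.11.15, numpy 2.4.6, scipy 1.17.1, networkx 3.6.1 and matplotlib 3.10.9 were used.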

Additional observations from a re-analysis of the deposited data

How the results depend on the processing

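The number of contacts was 77 with scores of at least 7 and 46 with scores of at least 10, in place of 129. The share called in every replicate used, 53.5% with all 3, ranged from 62.9% to 71.2% when 1 replicate was left out, where a contact needs only the other 2 replicates, and was 67.4% when a partner within 5 kb counted as a match. Replicates 1 and 2 without replicate 3 gave the highest share. The share of partner fragments called with 2 or more member promoter fragments, 58.7%, was 72.2% at scores of at least 10 and 86.7% on the merged calls. The cause of these shifts was not tested. Of the counts per gene and the leading scores, 69 alternatives moved by less than the bounds set and 18 by more. With gene-record starts only, the counts for FBXL18 (57) and ACTB (46) still include both fragments of each gene. Their record starts lie only in FBXL18/ACTB (28 contacts) and upstream ACTB (18 contacts), so those alternatives did not measure the shift. TNRC18 fell to 4 contacts and FSCN1 to 4 at scores of at least 10, and the contact of RNF216 was lost without replicate 2. The connected group kept all 6 member fragments, with 71 to 111 contacts, under each alternative tried. No paired analysis was possible because there was 1 group. Scores under 5 are not listed, fragments of up to 28751 bp hold several starts, and with 3 replicates of 1 line the spread between lines was not measured.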

Other observations

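On the merged replicates, the members' scores rose unevenly over those of the replicates. All 69 contacts called in all 3 replicates were also called on the merged set, and 44 of them had a merged score above each of their 3 replicate scores. The upstream ACTB fragment showed this for 15 of 16 contacts, FBXL18/ACTB for 14 of 16 and FSCN1 for 13 of 15, with median ratios of merged to mean score of 1.38, 1.27 and 1.29. For FBXL18/MIR589 it held for 1 of 18, with a median ratio of 1.06, and for TNRC18 fragment 2 for 1 of 6. At the first peak the merged score was 39.22 for upstream ACTB and 35.59 for FBXL18/MIR589, which is the opposite order from every replicate. Read counts were not used here, and what sets the difference was not tested.

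The merged set held 97 contacts of the member promoter fragments, of which 93 were in the union of the replicates and 4 were not. Of the 34 contacts called in 1 replicate, 5 were also called on the merged set.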
